A study of Drosophila melanogaster with 4 samples.

Results

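The broad NURF301 domains are 427 regions of enrichment that are 4500 bp wide or wider. They were chosen by the width of each region in the combined list of the 2 ChIP replicates, on the sequences X, 2L, 2R, 3L, 3R and 4. Each had to overlap a region of both replicate lists by 1 bp or more. The 427 domains are 8.55% of the 4997 regions on these 6 sequences that were found in both replicates, and the whole combined list holds 8224 regions. The other 4570 regions found in both replicates are called narrower regions here.

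The data come from ChIP-seq with the NURF301 antibody Q2602 on whole fly embryos (Drosophila melanogaster) aged 14 to 16 h. There were 2 ChIP libraries, each with an input library. Both groups were of the strain Oregon-R with a wild-type genotype, and the protocol in the labels fixed the embryos with 1.8% formaldehyde. Tissues were not separated, and the labels do not say whether the replicates were separate embryo collections, so their spread may be only technical.

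NURF301 is a subunit of the nucleosome remodelling factor NURF, in which the ATPase ISWI moves nucleosomes along DNA. NURF301 holds the complex together, contacts transcription factors and carries domains that bind modified histone tails. In flies, NURF is known for opening promoters of regulated genes, among them heat-shock and homeotic genes, and for roles in metamorphosis and blood cell development. The file headers name FlyBase r5 as the build of all coordinates, which are counted from 1. Domains are named by position, because no gene annotation of that build was used here.

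Domain widths ran from 4501 to 11879 bp, with a median of 5283 bp and quartiles of 4811 and 6069 bp. Of the domains, 114 (26.7%) were 6000 bp or wider, 20 were 8000 bp or wider and 3 were 10000 bp or wider. Narrower regions had a median width of 2523 bp. The domains made up 2.40 Mb, or 16.2% of the length of all regions found in both replicates. The threshold cuts a continuous range of widths. The 3 domains just inside it were 4501 bp wide and scored 0.53, 0.67 and 0.87, and the 3 regions just outside it were 4495 to 4497 bp wide and scored 0.71, 0.81 and 1.13. Within 100 bp of the threshold there were 38 domains, with a median score of 0.74, and 43 narrower regions, with a median score of 0.75.

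The score of a region is a log2 ratio of ChIP to input read counts after scaling, as worked out from the values, so that 0 stands for no enrichment and 1 for a doubling. Domains were moderately enriched, with scores from 0.37 to 1.43 and a median of 0.83. The median is an enrichment of 1.78 times the scaled input. Narrower regions ran from 0.18 to 1.81, with a median of 0.70. The count recovered for a domain had a median of 2301 ChIP reads and 1155 input reads, against 1026.5 and 559 for a narrower region. This depth gives a median counting error of 0.052 on the log2 scale for a domain and 0.076 for a narrower region. Counting errors cover counting only and not the differences between replicates.

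The same ordering held in each replicate when the regions of that replicate lying on each domain were averaged by width. Such a replicate score is that of the overlapping replicate regions only. Parts of a domain under no region of that replicate do not enter it. Replicate 1 left most of the length uncovered at 9.37% of domains and 1.33% of narrower regions. In replicate 2 these shares were 1.17% and 0.306%. The effect of the uncovered parts on the medians was not tested. In replicate 1 the median score was 0.83 over domains and 0.70 over narrower regions. In replicate 2 it was 0.94 and 0.79. The difference between the groups was 0.13 in replicate 1 and 0.16 in replicate 2, a mean of 0.15 ± 0.019 (SD, n = 2). It was larger than the difference between the replicates in this value. Width and score come from the same calls, and the smallest exact p that 2 replicates allow is 0.5, so no test was made and the difference is a description.

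By width in the combined list, the median score rose with width mainly among regions under 3000 bp, which were 3363 of the 4997. The median score was 0.34 for the 193 regions of 1500 to 1999 bp, 0.59 for the 2015 regions of 2000 to 2499 bp and 0.85 for the 1155 regions of 2500 to 2999 bp. From 3000 to 3499 bp the median was 0.86, from 3500 to 3999 bp it was 0.82 and from 4000 to 4499 bp it was 0.78. The domains lay in the same range. Their medians were 0.80 from 4500 to 4999 bp, 0.85 from 5000 to 5999 bp, 0.83 from 6000 to 7999 bp and 0.91 for the 20 widest. Over all 4997 regions, Spearman's rho of score and width was 0.54. It was 0.69 over the 3363 regions under 3000 bp, -0.035 over the 1634 regions of 3000 bp or more and 0.095 over the 427 domains. With the regions of a replicate list instead, rho was 0.79 in replicate 1 and 0.69 in replicate 2. Width classes were not made from the widths in those lists. These correlations are across regions of the same libraries, which are not independent replicates.

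**Figure D1:**
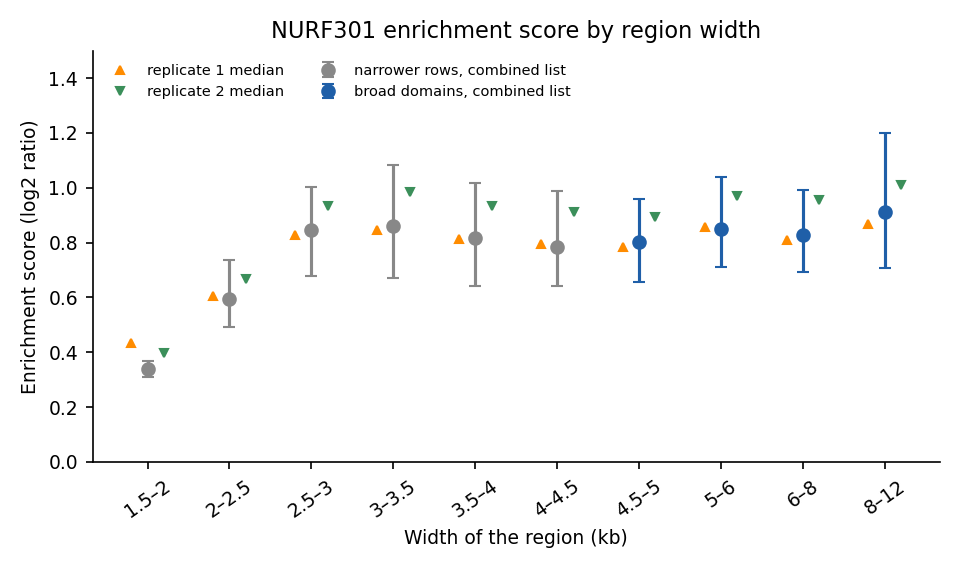
Median enrichment score (log2 ratio, y axis) of regions found in both replicates, by width in kb (x axis); circles with bars are the median and the lower and upper quartiles over regions in the combined list, and triangles are replicate medians. The median climbs from 0.34 to 0.85 up to 3 kb and stays between 0.78 and 0.91 in the wider classes, domains included.

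Domains were a smaller share of the weakest regions than of stronger ones. When the 4997 regions were ranked by score and cut into 4 groups of equal size, 26 domains lay in the lowest group, 104 in the next, 142 in the one above and 155 in the highest. These are 2.08%, 8.33%, 11.4% and 12.4% of the regions in each group, where domains are 8.55% of all. A score of 1 or more was found at 105 domains, or 24.6%, against a background of 17.0% of all regions found in both replicates. Among the 100 highest-scoring regions there were 9 domains, which is close to their share of 8.55% of all regions. The highest domain ranked 58. It lay on 3L at 13993796 to 14000964, spanned 7169 bp and scored 1.43, with 1.30 in replicate 1 and 1.58 in replicate 2.

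The next strongest domains ranged in width from 4559 to 9891 bp. On 3R, the domain at 27432686 to 27438096 scored 1.42 and the domain at 14066682 to 14071896 also scored 1.42. The 3L domain at 3217664 to 3227554 scored 1.41 and is the fourth widest of all. On 2L, the domain at 2854482 to 2859040 scored 1.39 and is the one of 4559 bp, below the lower quartile of domain widths. Each of these 5 was a single region in both replicates, and all scored higher in replicate 2 than in replicate 1. Replicate 1 covered 85.2% to 97.7% of their length and replicate 2 covered 99.3% to 100.0%.

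At the other end, the 5 weakest domains scored 0.37 to 0.42 and were poorly filled in the replicates. The lowest, on 3L at 3248400 to 3253188, scored 0.37 and lay 20.8 kb from the strong 3L domain at 3217664, each being the other's nearest domain. Replicate 1 covered 29.9% of it and replicate 2 covered 39.3%. The others lay on the X at 15863264 to 15868020, on 2L at 6073054 to 6077756, and on 3L at 12824330 to 12829644 and at 637970 to 645260. The last of these spans 7291 bp, of which replicate 1 covered 25.2% and replicate 2 covered 64.2%.

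The replicates ranked the domains similarly but not identically. Spearman's rho of the replicate scores was 0.85 over domains and 0.82 over narrower regions, both across regions. Replicate 2 was higher at 364 of the 427 domains (85.2%), and the median log2 difference was 0.12. At narrower regions it was higher in 70.2%, by a median of 0.083. The robust SD of this difference was 0.12 over domains, close to its median counting error of 0.11. Over narrower regions the values were 0.15 and 0.16.

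The excess of replicate 2 was larger at stronger regions of either kind. In the lowest of the 4 score groups the median difference was 0.031 at domains and -0.0052 at narrower regions. In the next it was 0.080 and 0.083, in the one above 0.13 and 0.11, and in the highest 0.14 and 0.15. Over the 248 domains with 1 region in each replicate the median difference was 0.13.

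**Figure D2:**
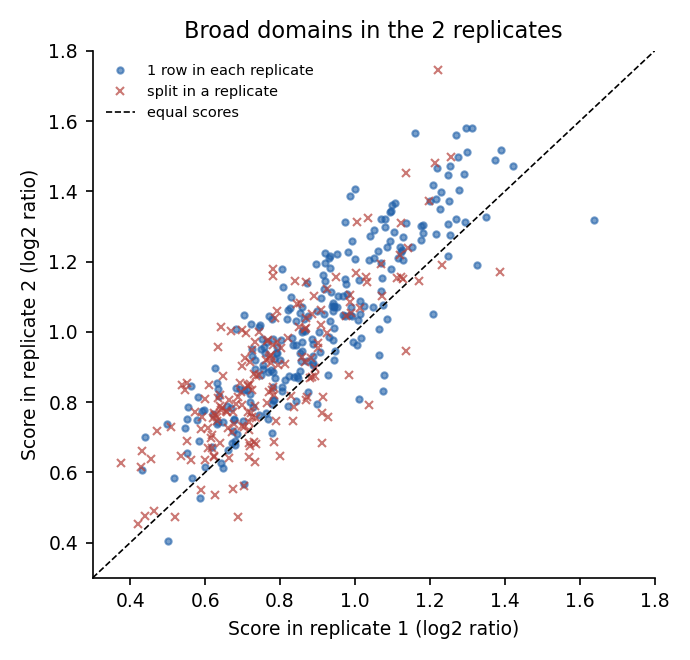
Score of each of the 427 broad domains in replicate 1 (x axis) and replicate 2 (y axis), both as log2 ratios; circles are domains with 1 region in each replicate, crosses are domains split in at least 1 replicate, and the dashed line marks equal scores. Of the domains, 364 lie above the line, and the rank correlation of the replicates is 0.85.

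A domain of the combined list was often more than 1 region in a replicate. In replicate 1, 147 domains (34.4%) were split, 141 into 2 regions and 6 into 3, against a background of 3.74% of all regions found in both replicates. In replicate 2, 81 domains (19.0%) were split, 79 into 2 and 2 into 3, against a background of 2.26%. Narrower regions were split in 0.875% of cases in replicate 1 and 0.700% in replicate 2. A wide region has more room for several replicate regions, since the narrowest region of either replicate list is over 1 kb. An overlap of 1 bp is enough to count, so narrow regions can be split too. The choice by width therefore favours splitting, and the contrast is a description.

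Splitting became more common with width in replicate 1, in which 20.9% of the domains of 4500 to 4999 bp were split, 32.3% of those of 5000 to 5999 bp, 53.2% of those of 6000 to 7999 bp and 14 of the 20 widest (70.0%). In replicate 2 the shares were 14.6%, 16.8% and 29.8%, and 4 of the 20 widest (20.0%). Below the threshold, regions of 4000 to 4499 bp were split in 12.4% of cases in replicate 1 and 6.43% in replicate 2. Under 3500 bp the share was at most 0.518% in any width class and either replicate.

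**Figure D3:**
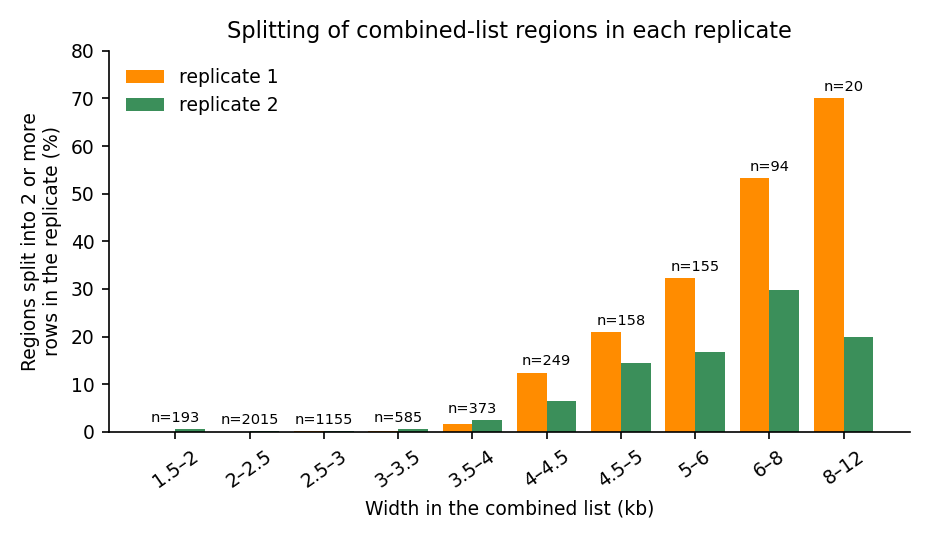
Percent of combined-list regions found in both replicates that correspond to 2 or more regions of replicate 1 or of replicate 2 (y axis), by width in kb (x axis); n is the number of regions in the class. In replicate 1 the bars rise from 12.4% just below the threshold to 70.0% in the widest class, and in replicate 2 from 6.43% to 29.8% and then 20.0%.

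In all, 248 domains (58.1%) were single in both replicates, against 4505 of the 4570 narrower regions. Of the other domains, 98 were split in replicate 1 only, 32 in replicate 2 only and 49 in both. The gaps between the parts were short. Their median was 244 bp in replicate 1 (153 gaps, 3 to 5157 bp) and 175 bp in replicate 2 (83 gaps, 0 to 1440 bp). Of the gaps, 98.0% in replicate 1 and 95.2% in replicate 2 had their midpoint in the central 50% of the domain. The width of the parts limits how near an end a gap can lie, since the median narrower part spanned 1979 bp (replicate 1) or 2058 bp (replicate 2), so this position is not read as a result. Where both replicates were split, the gaps overlapped in 42 of 49 domains. The same limit on position favours overlap, and no background share was worked out, so this count is not read as a result. The midpoints of 43 overlapping pairs lay a median of 82.5 bp apart. Only overlapping pairs entered this distance, and short gaps that overlap must have close midpoints, so the distance is not read as a result.

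The gaps of each replicate were also set against the regions of the other. Of 101 gaps in domains split in replicate 1 only, 97 were spanned by a single region of replicate 2. Those 98 domains were chosen as single in replicate 2, which covered a median of 97.8% of their length. Such spanning is therefore largely fixed by the choice and is not read as a result. Of 32 gaps in domains split in replicate 2 only, 11 were spanned by a region of replicate 1. In those 32 domains replicate 1 covered a median of 56.7% of the length, and in 11 of them under 50%. The adjacent parts of a split domain differed in score by a median of 0.19 in replicate 1 and 0.27 in replicate 2. Split domains scored lower than single ones in the combined list, at 0.76 against 0.86 for splitting in replicate 1 and 0.68 against 0.86 for splitting in replicate 2.

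Replicate regions filled most of a typical domain. The median share of a domain under regions of replicate 1 was 87.4%, and under regions of replicate 2 it was 96.4%. For narrower regions the shares were 89.2% and 95.8%. Either replicate together covered a median of 97.6% of a domain, and both at once covered 85.7%. A minority of domains were mostly absent from replicate 1. Its regions covered under 50% of the length at 40 domains, or 9.37%, against a background of 2.02%. In replicate 2 this held for 5 domains, or 1.17%, against a background of 0.380%. The 40 domains scored a median of 0.58, against 0.85 for the other 387, and replicate 2 covered a median of 84.9% of their length.

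Being 4500 bp wide in the combined list did not always mean being so wide in a replicate. A single region of 4500 bp or more lay on 130 domains (30.4%) in replicate 1 and on 269 (63.0%) in replicate 2. With the same rule applied to each replicate list in turn, there were 132 domains in replicate 1 and 280 in replicate 2, a mean of 206 ± 105 (SD, n = 2). The combined list had more such domains than either replicate list.

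The 10 widest domains show these patterns one by one. The widest lay on chromosome X, from 9048548 to 9060426. It was 11879 bp long and had a score of 0.90. It was 2 regions in replicate 1 and 1 in replicate 2, and the replicate scores were 0.87 and 1.01. The second, on the X at 510080 to 520696, scored 0.71 and was 2 regions in replicate 1 and 3 in replicate 2. Its replicate scores, 0.71 and 0.77, were closer together than those of the widest domain. The third, on 2R at 6692246 to 6702432, was a single region in both replicates and scored 0.89.

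The fourth is the strong 3L domain at 3217664 to 3227554, single in both, with 6908 ChIP and 2359 input reads. The fifth, on 3R at 4871844 to 4881638, had the lowest score of the 10, at 0.61, and ranked 3232 by score. On 2L, the domain at 2191184 to 2200956 was 3 regions in replicate 1 and a single one in replicate 2. The domain at 2006352 to 2016068 on 2L was 2 regions in each replicate, which covered 69.4% and 73.8% of it. Its outer part toward the start of the arm lay under no region of either replicate.

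The eighth widest domain, on the X at 7823692 to 7833386, was single in both replicates and scored 1.27, with 1.23 and 1.40 in the replicates. The last 2 lay on 2R, at 9839988 to 9849364 and at 8473174 to 8482540, and scored 1.18 and 1.06. Both were 2 regions in replicate 1 and 1 in replicate 2. Over the 10, 7 were split in replicate 1 and 2 in replicate 2, and all scored higher in replicate 2.

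**Figure D4:**
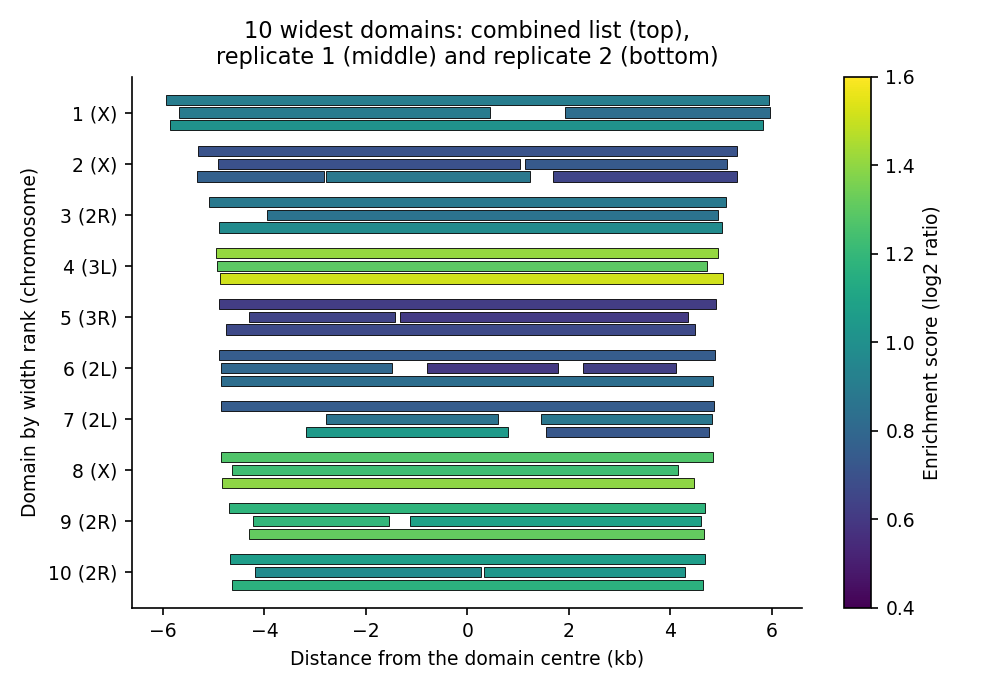
The 10 widest domains, one per line, as distance from the domain centre in kb (x axis); in each line the upper bar is the combined-list region, the middle bars are replicate 1 regions and the lower bars replicate 2 regions, coloured by enrichment score (log2 ratio). Replicate 1 shows 2 or more bars in 7 of the 10 and replicate 2 in 2 of the 10.

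The most divided domain, on 3L at 14595432 to 14602156, was 3 regions in each replicate. The parts of replicate 1 scored 0.67, 0.53 and 0.76 in order along the arm, and those of replicate 2 scored 0.63, 0.47 and 0.79. The middle part was the weakest and the last part the strongest in both. On 3R at 7584144 to 7591360, replicate 1 had 3 parts that scored 0.51, 0.51 and 0.78, and replicate 2 had 2 that scored 0.70 and 0.84, again with the last part strongest. On 2R at 17587172 to 17594792, replicate 1 had 3 parts, with the middle one strongest at 0.63, and replicate 2 had 2 that scored 0.77 and 0.89.

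Domains were present on every sequence that was searched. The X and 3R had 95 each, 2R had 88, 3L had 71, 2L had 70 and chromosome 4 had 8. The density was 4.24 per Mb on the X and 4.16 on 2R, against 3.40 on 3R, 3.04 on 2L and 2.89 on 3L. Chromosome 4 had 5.92 per Mb, from 8 domains. As a share of the regions found in both replicates, domains were 10.8% on the X, 8.84% for 2R, 8.00% for 3R, 7.79% for 2L and 7.21% for 3L. On chromosome 4 they were 8 of 48, or 16.7%.

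The median domain score was highest on chromosome 4, next on the X and lower on each autosome arm, but the arms also differed among themselves. The median was 0.82 on 2L, 0.84 on 2R, 0.79 on 3L and 0.78 on 3R. It was 0.89 on the X and 1.00 on chromosome 4. In replicate 1 it was 0.92 on chromosome 4, 0.91 on the X, 0.84 on 2R, 0.79 on 2L, 0.79 on 3L and 0.78 on 3R. In replicate 2 it was 1.13 on chromosome 4, 0.98 on the X, 0.97 on 2R, 0.93 on 2L, 0.88 on 3L and 0.88 on 3R. The X and 2R were therefore close in replicate 2, where the autosome arms differed among themselves by more than the X differed from 2R. The X exceeded the 4 autosome arms pooled by 0.12 in replicate 1 and 0.068 in replicate 2, a mean of 0.093 ± 0.036 (SD, n = 2). Narrower regions showed an X difference of 0.085 ± 0.0013 (SD, n = 2), which lies within the spread of the domain value. Their combined-list median was likewise highest on chromosome 4, at 0.79. It was 0.76 on the X and 0.67 to 0.70 on the autosome arms. In the combined list, a kb of domain had a median of 173 input reads on the X but 229 on the autosomes 2 and 3. The lower input depth of the X, and its part in the scores, was not tested.

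Along the arms, the domains thinned toward the end of 2L. With each arm cut into 3 stretches of equal length, 2L held 32, 26 and 12 domains, or 9.22%, 8.33% and 5.00% of its regions. The X held 39, 29 and 27, with 5.22 per Mb in its first stretch. The counts were 24, 30 and 34 on 2R, 25, 23 and 23 on 3L, and 29, 37 and 29 on 3R. The longest stretch with no domain was on 2L, 2187 kb from 16863847 to 19050391. It held 66 narrower regions with a median score of 0.66. Another of 1815 kb, also on 2L, held 45, and one of 1692 kb at the end of 3L held 24.

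The typical domain stood far from the next. The median gap to the nearest other domain was 76.9 kb, with quartiles of 21.3 and 183 kb, and the sequences averaged 1 domain in 282 kb. Another domain lay within 5 kb of 26 domains, or 6.09%, against a background of 6.4% of all regions found in both replicates. Within 50 kb the count was 182, or 42.6%, against a background of 37.3%, and within 100 kb it was 245, or 57.4%, against a background of 56.2%. Within 20 kb there was another for 101 domains, or 23.7%, against a background of 19.6% of all regions found in both replicates that had a domain within 20 kb. With domains taken from a replicate list instead, the share was 4.55% in replicate 1, with 132 domains, and 15.0% in replicate 2, with 280. By sequence in the combined list, the share was 32.6% on the X, 26.1% on 2R, 25.7% on 2L, 18.9% on 3R and 15.5% on 3L. On chromosome 4 it was 0 of 8. For narrower regions the share was 23.4% on the X, 20.9% on 2R, 18.2% on 2L, 18.0% on 3R and 15.8% on 3L. On chromosome 4 it was 27.5% for narrower regions.

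**Figure D5:**
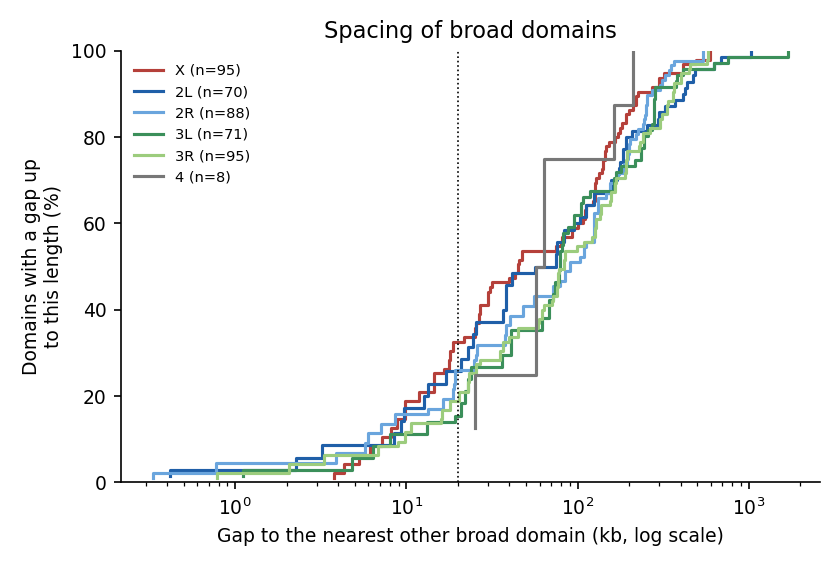
Cumulative percent of broad domains (y axis) whose nearest other broad domain on the same chromosome lies within a given gap in kb (x axis, log scale), by chromosome; the dotted line marks 20 kb and n is the number of domains. The curves of the large arms overlap over most of the range, with 15.5% on 3L to 32.6% on the X at the dotted line.

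The 101 domains within 20 kb of another formed 47 runs, 40 of 2 domains and 7 of 3, and no run was longer. Of the 7, 2R held 3, 3R held 2, and 3L and the X held 1 each. The closest pair of all was in a 2R run that spanned 34.8 kb from 12463950 to 12498792, where the first 2 domains were 331 bp apart. Their scores were 0.45 and 0.74, and the third scored 1.10. In a second 2R run, from 17054810 to 17090634, no narrower region found in both replicates lay between the domains, which scored 1.20, 0.86 and 0.78. The third 2R run, from 19908396 to 19952188, held domains of 4555, 5977 and 8461 bp that scored 0.85, 0.81 and 0.92.

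In windows of 500 kb on the large arms, the number of domains averaged 1.75. Of 236 windows, 49 held none, 69 held 1, 59 held 2, 31 held 3 and 28 held 4 or more. The fullest window, on 2R from 19500001 to 20000000, held 10 domains among 41 regions, and the next, on the X from 15500001 to 16000000, held 7 among 33. The variance of the counts over windows was 1.33 times their mean, against 2.31 times for narrower regions, whose mean of 19.1 is larger. Counts of domains and narrower regions had a Spearman's rho of 0.32 over the windows.

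The most isolated domains were at or near the ends of 2 arms. On 3L, the domain at 24527144 to 24532000 lay 1692 kb from the next domain and 68.1 kb from any other combined-list region. It scored 0.86, with 0.82 in replicate 1 and 1.06 in replicate 2. The domain before it, at 22830116 to 22834988, scored 0.47 and had its nearest domain 760 kb away. On 2L, the domain at 22246516 to 22251194 scored 0.92 and lay 1024 kb from the next.

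The immediate neighbours of domains resembled those of narrower regions. The median gap from a domain to the nearest combined-list region was 2427 bp, against 2525 bp for narrower regions. A neighbour lay within 1 kb of 117 domains, or 27.4%, against a background of 26.8%. The nearest region found in both replicates was itself a domain for 34 domains, or 7.96%, against a background of 8.59%. The nearest region of any kind had a median score of 0.56 and a median width of 2373 bp beside domains, and 0.55 and 2295 bp beside narrower regions.

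Neighbours were also found in the replicates at similar rates. Of the nearest regions beside domains, 286 (67.0%) were in both replicates, 12 in replicate 1 only, 68 (15.9%) in replicate 2 only and 61 (14.3%) in neither. Beside narrower regions the shares were 66.3% in both, 13.3% in replicate 2 only and 17.2% in neither. The nearest region was weaker than the domain for 323 domains (75.6%), and weaker than the narrower region in 64.2% of cases. Within 20 kb on either side, domains had a mean of 3.94 other regions covering a median of 23.0% of the flanks, against 3.58 and 20.4% for narrower regions. No other region lay within 20 kb of 12 domains (2.81%) and of 171 narrower regions (3.74%).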

How the data were processed

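The ChIP and input libraries of 2 replicates were mapped by the submitters, whose processing notes name Bowtie 0.12.7. The authors deposited 3 lists of enriched regions, one per replicate and one combined. The sources used here do not name the caller or its threshold, nor how the combined list was made, and total depth is unknown. The deposited score was read as a log2 ratio of counts, because 2 to the power of the score over a constant per list (0.885, 0.927 and 0.908 in replicate 1, replicate 2 and the combined list) was a fraction of whole numbers in 100% of regions (denominator up to 3000, relative tolerance 2e-10). Numerators were taken as ChIP counts, an assignment the files do not state. Common factors were restored from the typical input density of the X, chromosome 4 or the autosome arms. The median region of the lists held 400, 516 and 799 ChIP counts. Counting errors cover counting only.

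Regions of a replicate belonged to a domain if they overlapped it by 1 bp or more, and their scores were averaged as width-weighted ratios. Parts of a domain under no region of a replicate did not enter its score in that replicate. Regions are not replicates, and with 2 replicates the smallest exact two-sided p is 0.5 within pairs, so no test was made and differences are given within each replicate. Overlaps, gaps and runs were checked on simulated lists. Count recovery was also run on a simulated list of a single input density, with no pass mark set for it. The members and comparisons were chosen with earlier results of these data known. Named regions were the 10 widest, the 5 highest and 5 lowest by score, the 5 most split, the first 3 of the longest runs in order of chromosome and start, the 3 most isolated and the 3 on each side of the threshold. No genome or annotation of FlyBase r5 was used here, so no gene or sequence is given. Tools were Python 3.11.15, pandas 2.3.3 and matplotlib 3.10.9.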

Additional observations from a re-analysis of the deposited data

Results flagged for a closer look

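Regions as wide as the domains also occurred outside the set. On the heterochromatic and unplaced sequences, 7 combined-list regions were 4500 bp wide or wider, 3 on 3LHet, 2 on 2LHet, 1 on 3RHet and 1 on U, and all 7 were found in both replicates. Their scores ran from 0.78 to 1.31. The widest, on 3LHet at 600058 to 607752, spanned 7695 bp, scored 0.97 and was 2 regions in each replicate. These sequences take part in none of the comparisons, and how well reads can be placed on them was not tested.

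On the 6 sequences searched, 8 more combined-list regions reached 4500 bp but overlapped no region of replicate 1. All 8 overlapped a region of replicate 2. Their scores were low, from 0.34 to 0.49 with a median of 0.42, and the widest spanned 6011 bp on 2R at 17544738 to 17550748.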

How the results depend on the processing

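Of 79 comparisons with an alternative, 50 moved by less than the spread between replicates (for the number of domains, by less than 1.5 times) and 29 by more; for those 29 the cause was not tested, apart from changes of width threshold and cluster gap, which alter the definition itself. The number of domains (427) was 676 at a threshold of 4000 bp, 269 at 5000 bp, 742 after merging regions under 500 bp apart, 132 in the replicate 1 list and 280 in the replicate 2 list. The domains' share of length (16.2%) was 23.4%, 11.2%, 28.8%, 5.65% and 11.4% in the same order. The median score difference from narrower regions (0.13) was 0.073 after merging, 0.24 in the replicate 1 list, 0.21 in the replicate 2 list, and 0.15 to 0.21 when overlap was asked of 1 replicate only. The direction of this difference was the same under each alternative run, but no alternative set the narrowest regions aside. Regions of 3000 to 3499 bp had a higher median than the domains, at 0.86 against 0.83 in the combined list. In replicate 1 the values were 0.85 and 0.83, and in replicate 2 they were 0.99 and 0.94. Spearman's rho of score and width (0.54) was 0.44 after merging, 0.40 for scores of 0.5 or more, 0.79 and 0.69 in the replicate 1 and replicate 2 lists, and 0.60 to 0.68 with overlap in 1 replicate only. The share of domains within 20 kb of another (23.7%) was 33.4% at 4000 bp, 35.8% after merging, 4.55% in the replicate 1 list, 15.0% in the replicate 2 list, 14.8% for a 10-kb gap and 42.6% for a 50-kb gap. The gap to the nearest region (2427 bp) was 4642.5 bp in the replicate 1 list, and the nearest score (0.56) was 0.71 and 0.74 in the replicate lists. Splitting and coverage in either replicate moved by less than that spread under each alternative run. Here the spread is wide, since the replicates themselves differed, at 34.4% and 19.0% for splitting and 87.4% and 96.4% for coverage. Splitting in replicate 1 was 26.3% at a threshold of 4000 bp and 42.4% at 5000 bp. No paired analysis was possible because the inputs have no list of their own, so ChIP and input samples could not be compared as groups. Differences between sets of regions are given within each replicate, with no test. The lists hold regions that passed the caller only, so signal between the parts of a split domain cannot be measured.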
